A study of Mus musculus with 4 samples.

Results

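The 32 genes described here are markers and regulators of epithelial, mesonephric and mesothelial cells. They were taken by gene symbol from a table of 53715 genes, and each symbol matched 1 row. They comprise 4 keratins, 12 genes of adhesion and junctions, 5 epithelial regulators, 6 genes of membrane proteases, their inhibitors, vesicle traffic and the apical surface, 3 nephric regulators and 2 mesothelial genes. RNA-seq counts came from C57BL/6 mouse embryos, from a cell fraction labelled as primordial germ cells, at E12.5, enriched by MACS (magnetic sorting), with 1000 cells in each Smart-seq2 library. There were 2 libraries labelled wild type (WT) and 2 labelled Rif1 knockout (Rif1_KO), with no other treatment named. Not given in the labels are the deleted part of Rif1, the cells it was deleted in, the marker used for sorting, and whether the libraries of a pair came from separate embryos. P-values therefore rest on a spread between libraries that may be only technical.

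Epithelial cells are held together by cadherin and claudin junctions, are stiffened by paired keratin filaments, and keep an apical and a basal side. In the embryonic gonad such cells are found in the coelomic epithelium that covers it and in the mesonephric tubules and duct beside it, which are laid down under Pax2, Pax8 and Lhx1. Germ cells are not epithelial, but Epcam and Cdh1 are also made by them at this stage. Snail and ZEB factors, which drive the mesenchymal state, bind E-box sequences in the promoters of epithelial genes.

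Totals were 11724630 to 14421298 counts per library. Rif1 transcript, read as a check of the labels, was not lower in the libraries labelled Rif1_KO. Its level was 43.7 and 4.73 CPM (counts per 1000000, scaled with TMM) in the libraries labelled WT, replicate 1 and then 2. In those labelled Rif1_KO it was 86.2 and 63.9 CPM. Its log2 fold change was 1.63 (SE 1.01, edgeR adjusted p = 0.717). It was 4.04 and 0.79 without WT replicate 1 and 2, and 1.45 and 1.85 without Rif1_KO replicate 1 and 2. The deleted part of Rif1 is not given, so its gene-level count can neither bear out nor refute the labels. Libraries are therefore named by their label, and every direction below is that of the labels. Germ cell markers were uneven. The 12 genes of the list summed to 459 CPM in WT replicate 2 against 36.3 to 56.7 CPM in the other 3 libraries, and that sum was carried by Dazl (196 CPM), Dppa3 (165) and Ddx4 (59.2). Others of the list ran differently: Prdm14 had 19.9 and 18.4 CPM in the WT-labelled libraries against 0.452 and 0.106 CPM, Dnd1 was highest in WT replicate 1 (8.84 CPM), Kit in Rif1_KO replicate 1 (11.5 CPM) and Prdm1 in Rif1_KO replicate 2 (17.7 CPM). Of these genes Sox2 was at 0 counts in WT replicate 1 and Rif1_KO replicate 2, and Pou5f1 was between 0.301 and 1.20 CPM. Erythroid markers summed to 138697 and 113023 CPM in the WT-labelled pair against 9886 and 4266 CPM in the Rif1_KO-labelled pair, all 11 lower. Mesenchymal markers summed to 812 and 756 CPM against 1884 and 1654 CPM. What part these cells play in the values below was not tested, and in bulk libraries fewer cells of a type and less RNA per cell cannot be told apart.

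Krt8 and Krt18 were chosen as partners, and Cldn6 for its fitted difference. Epcam, Spint2 and Upk3b were chosen as the highest of their role groups per kb. Promoter sequences of these 6 members are shown. They are the 250 bases before the RefSeq start site (build GRCm38.p6), read 5′ to 3′ on the strand of the gene. Capitals mark the E-box CACCTG, or CAGGTG where it lies on the other strand. The Krt8 window lies at chr15:102004343-102004592 on the minus strand and that of its partner Krt18 at chr15:102027966-102028215 on the plus strand. Both overlap the gene models used for counting, which end at 102004482 for Krt8 and start at 102028180 for Krt18. The marked E-box of Krt8 lies within its model. The windows of Epcam and Cldn6 are chr17:87635729-87635978 and chr17:23679115-23679364, both on the plus strand. That of Spint2 is chr7:29281978-29282227 on the minus strand, before a RefSeq start that lies upstream of the gene model used for counting, and that of Upk3b, which has no match and is shown for contrast, is chr5:136038246-136038495 on the plus strand.
Krt8: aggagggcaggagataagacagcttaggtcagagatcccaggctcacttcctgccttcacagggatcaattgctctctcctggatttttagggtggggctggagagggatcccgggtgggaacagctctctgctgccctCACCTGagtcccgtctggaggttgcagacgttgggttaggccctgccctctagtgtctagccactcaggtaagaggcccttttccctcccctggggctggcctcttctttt
Krt18: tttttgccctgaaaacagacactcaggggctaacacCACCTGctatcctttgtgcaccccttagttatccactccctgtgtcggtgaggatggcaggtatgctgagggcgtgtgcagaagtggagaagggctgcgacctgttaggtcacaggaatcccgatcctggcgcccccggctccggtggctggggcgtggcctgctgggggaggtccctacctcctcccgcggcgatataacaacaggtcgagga
Epcam: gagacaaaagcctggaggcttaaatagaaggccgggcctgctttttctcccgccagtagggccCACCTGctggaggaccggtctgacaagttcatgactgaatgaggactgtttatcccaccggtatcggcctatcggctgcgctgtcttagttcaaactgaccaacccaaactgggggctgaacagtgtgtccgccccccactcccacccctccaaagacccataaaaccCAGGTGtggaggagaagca
Cldn6: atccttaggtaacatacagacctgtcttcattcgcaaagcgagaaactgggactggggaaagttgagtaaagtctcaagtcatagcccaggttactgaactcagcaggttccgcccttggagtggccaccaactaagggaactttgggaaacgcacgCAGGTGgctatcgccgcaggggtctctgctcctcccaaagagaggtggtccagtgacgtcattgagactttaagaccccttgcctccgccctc
Spint2: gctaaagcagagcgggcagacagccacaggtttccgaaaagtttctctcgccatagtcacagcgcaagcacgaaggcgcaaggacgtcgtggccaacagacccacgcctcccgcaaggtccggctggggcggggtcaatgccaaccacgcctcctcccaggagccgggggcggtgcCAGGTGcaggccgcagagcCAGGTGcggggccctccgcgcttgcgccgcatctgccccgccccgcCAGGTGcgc
Upk3b: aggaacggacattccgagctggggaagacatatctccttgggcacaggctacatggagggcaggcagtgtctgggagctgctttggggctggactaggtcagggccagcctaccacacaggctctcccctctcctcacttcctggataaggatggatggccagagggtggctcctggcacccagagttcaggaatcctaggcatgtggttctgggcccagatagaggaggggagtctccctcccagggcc

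The E-box was present in the promoters of most members. Of the 32 members 23 had a RefSeq window, which runs from 250 bases before to 50 after the start. In 19 of these 23 genes (82.6%) at least 1 window held CACCTG on either strand, against 22.6% of all 27025 genes with windows and 23.4% of 12541 protein-coding genes with a GC content of at least 50%. Counted by window, 23 of 31 member windows held it, against 20.2% of 32851. The 4 genes without it were Lhx1, Spint1, Tjp1 and Upk3b. In Cldn3, Marveld2 and Pax8 every match lay after the start site, within the 50 bases of the window that follow it. The E-box was 1 of 11 motifs searched, each on both strands. The GC box GGGCGG was in 69.6% of member genes against 38.2% of all, the ETS motif GGAAGT in 43.5% against 26.5%, and the open Grainyhead motif AACCNGTT in 17.4% (Muc1, Pax2, Prom1 and Rab25) against 2.35%. Its full palindrome AACCGGTT, which lies within the open form, was in 0 members. CCAAT was in 34.8% against 41.1%, TATAAA in 13% against 15.7%, TGANTCA in 13% against 8.97% and TGACTCA, which lies within it, in 13% against 5.95%. TGATAA and AGATAA were each in 8.70% of member genes, against 10.4% and 12.7% of all. A match is a string of letters and not a measured binding site. Transcripts of factors that bind this E-box were present at uneven levels. Snai2 had 80.4 and 47.7 CPM in the WT-labelled pair and 54.6 and 72.3 CPM in the Rif1_KO-labelled pair. Zeb1 had 23.4 and 97.8 CPM against 49.96 and 29.3 CPM, and Zeb2 7.28 and 11.5 CPM against 11.8 and 18.7 CPM. Snai1 was low, at 1.01 and 1.61 CPM against 1.13 and 1.75 CPM. Their part in the levels of the members was not tested.

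**Figure D1:**
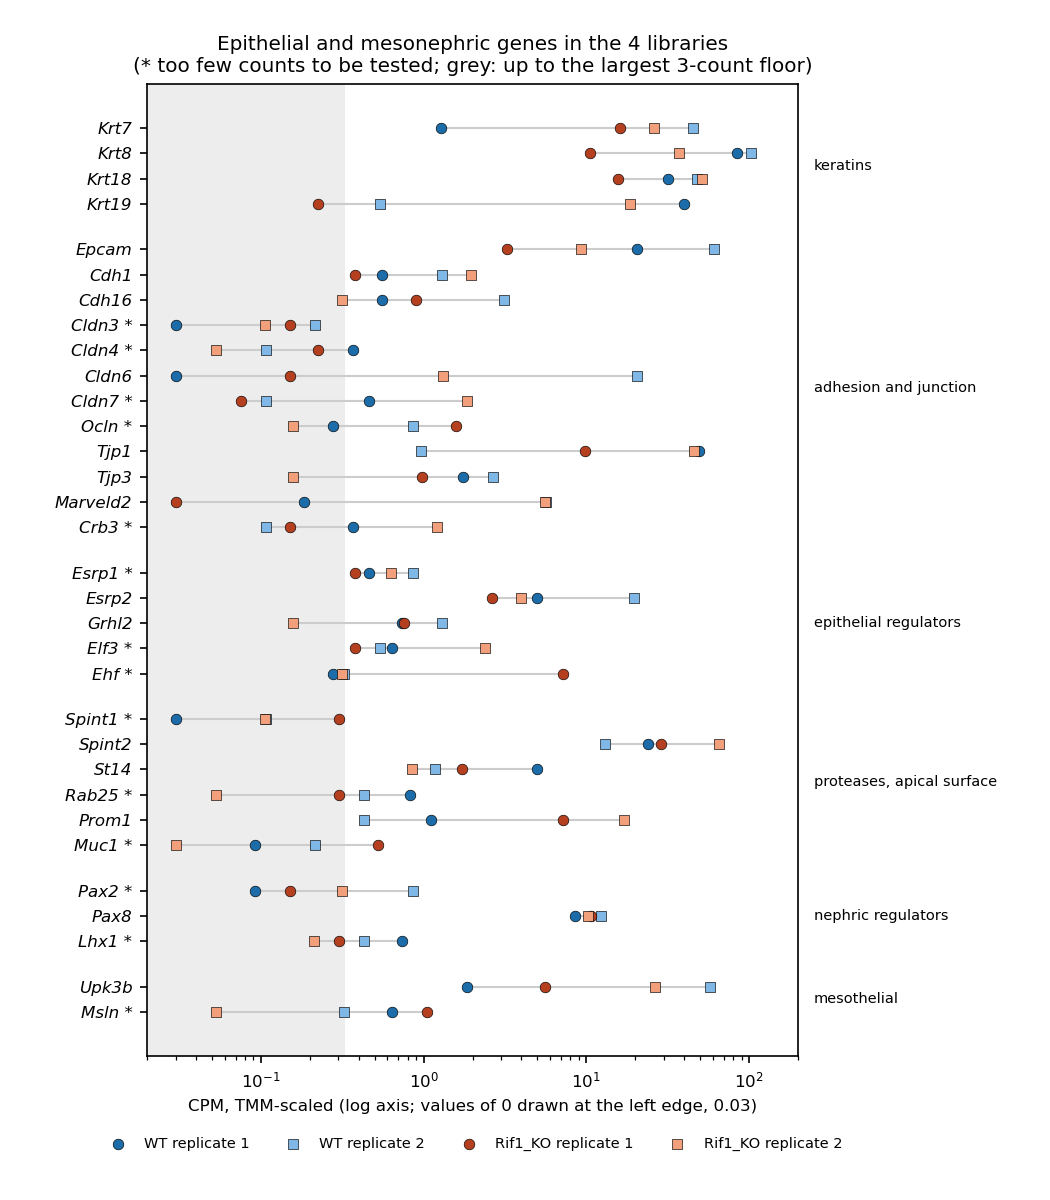
Level of each member in each library in CPM on a log axis, with genes grouped by role; circles are replicate 1 and squares replicate 2, blue is the label WT and orange-red the label Rif1_KO, and an asterisk marks the 14 genes with too few counts to be tested. Krt8, Krt18 and Spint2 lie above 10 CPM in all 4 libraries, while 8 members lie under 1 CPM in every library.

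The list was uneven. At least 10 CPM in some library was reached by 12 members, Krt7, Krt8, Krt18, Krt19, Epcam, Cldn6, Tjp1, Esrp2, Spint2, Prom1, Pax8 and Upk3b. Only Krt8, Krt18 and Spint2 stayed above 10 CPM in all 4 libraries. Another 8 were under 1 CPM everywhere: Cldn3, Cldn4, Esrp1, Spint1, Rab25, Muc1, Pax2 and Lhx1. Per kb of gene length, which allows genes to be compared, Krt8 had a mean level of 29.97 CPM per kb over the 4 libraries and Krt18 one of 25.5. Epcam (11.5), Krt19 (7.95), Spint2 (7.20) and Upk3b (6.45) followed, and Pax2 (0.0657) and Spint1 (0.0465) were lowest.

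Of the 32 members 18 had enough counts to be tested, and the quasi-likelihood test of edgeR, adjusted by Benjamini-Hochberg at 0.05, called 0. Of all 15466 tested genes 2 were called (0.0129%), both alpha-globin genes. At an unadjusted p under 0.05 edgeR gave 2 members, against 8.41% of all tested genes: Prom1, higher (5.35% of all), and Krt8, lower (3.05%). DESeq2 called 1 member, Prom1, against 3.37% of all tested genes, and limma-voom called 0 members. Fitted log2 fold changes of Rif1_KO over WT were below 0 in 13 of the 18 and above 0 in 5, with a median of -0.99, against 53.9% below 0 and a median of -0.11 over all tested genes. That median moved with the members and libraries included, and in some settings changed sign. It was -0.76 with upper-quartile factors, -0.95 with limma-voom and -0.79 over 9 members with at least 10 counts in every library. Without Rif1_KO replicate 2 it was -1.11 over 21 members, where all tested genes had -0.18. It was 0.19 over all 32 members with no filter, 0.295 over 25 members without WT replicate 2, 0.05 over 22 without Rif1_KO replicate 1 and -0.18 over 25 without WT replicate 1, where all tested genes had medians of -0.10, 0.285, -0.11 and 0.32. In 2 members both libraries labelled Rif1_KO lay above both labelled WT (21% of all tested genes), and in 4 both lay below (18.4%). A member could pass the filter through a single label, as Prom1 did. These counts therefore describe the 18 and not the list of 32.

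Krt8 and Krt18 had the highest mean levels per kb of the members. Krt8 encodes the type II keratin of simple epithelia and pairs with the type I keratin of Krt18. Krt8 (ENSMUSG00000049382.10, chromosome 15, 101996698 to 102004482, mm10) had 84.4 and 103 CPM in the WT-labelled pair and 10.5 and 37.0 CPM in the Rif1_KO-labelled pair. The pairs did not overlap, with means of 93.6 ± 13.1 and 23.7 ± 18.8 CPM (SD, n = 2 each). Its log2 fold change of -1.98 (SE 0.74) was not called by edgeR (adjusted p = 0.577), and without WT replicate 1 it was -2.07 and was called (edgeR adjusted p = 0.0244). It was -1.25 without Rif1_KO replicate 1 (edgeR adjusted p = 0.861), -3.10 without Rif1_KO replicate 2 (edgeR adjusted p = 0.969) and -1.82 without WT replicate 2 (edgeR adjusted p = 0.0884). The neighbouring partner gene Krt18 (ENSMUSG00000023043.7, chromosome 15, 102028180 to 102032027) did not separate the labels, with 31.7 and 47.6 CPM against 15.7 and 51.5 CPM. Its log2 fold change was -0.24 (SE 0.84, edgeR adjusted p = 0.971), and this was 0.00 with upper-quartile scaling, 0.09 without WT replicate 2 and 0.47 without Rif1_KO replicate 1.

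The balance of this keratin pair separated the labels. Per kb, Krt8 stood at 1.95 and 1.59 times Krt18 in the libraries labelled WT and at 0.490 and 0.528 times in those labelled Rif1_KO. The means were 1.77 ± 0.261 and 0.509 ± 0.0264 (SD, n = 2 each). The ratio is free of library scaling because both counts come from the same library, 916 and 344 counts in WT replicate 1 and 139 and 208 in Rif1_KO replicate 1. With 2 against 2 libraries an exact two-sided permutation test cannot go below p = 0.333, and the ratio was singled out after its values had been seen. An antisense gene model, Gm36026, overlaps 101 exonic bases of Krt8 and had 69 and 72 counts in the WT-labelled pair against 2 and 41. The counting used no strand, so reads of this overlap were counted for both genes. A Krt8 pseudogene in the table, Krt8-ps, had 0 to 2 counts per library.

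**Figure D2:**
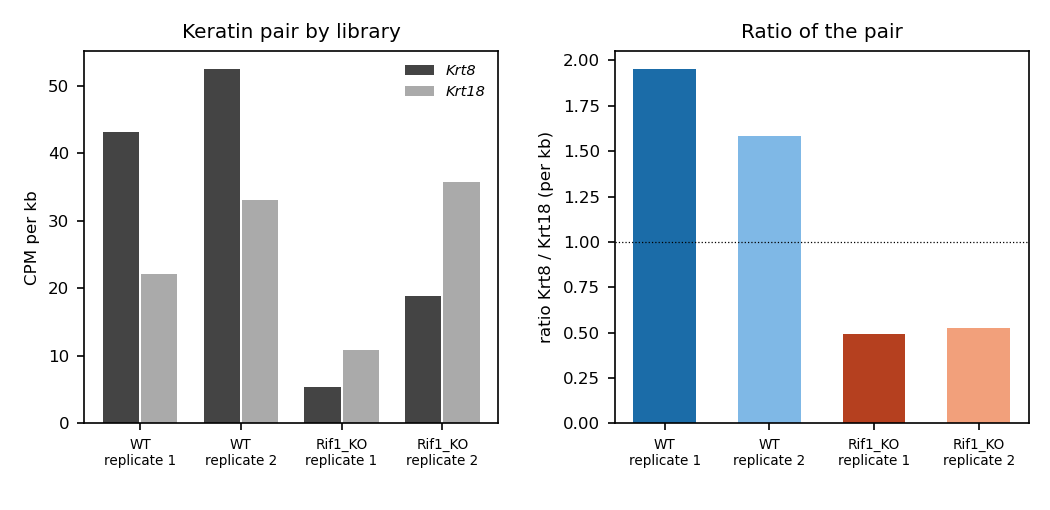
Left, level of Krt8 (dark) and Krt18 (light) in CPM per kb of gene length in each library; right, ratio of Krt8 to Krt18 per kb, with a dotted line at equal levels. Krt8 is above Krt18 in both libraries labelled WT and below it in both labelled Rif1_KO.

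Krt19 and Krt7, the other keratins of simple epithelia in the list, did not separate the labels. Krt19, the keratin of ducts and of mesothelium, had 39.7 and 0.537 CPM in the WT-labelled pair and 0.226 and 18.5 CPM in the Rif1_KO-labelled pair. It was thus high in WT replicate 1 and Rif1_KO replicate 2, and near the floor of 3 counts in the other 2 libraries. Its log2 fold change of -1.10 (SE 2.20, edgeR adjusted p = 0.938) became 4.14 without WT replicate 1 and -6.39 without Rif1_KO replicate 2. Krt7, found in ducts and in mesothelium, had 1.29 and 45.6 CPM against 16.1 and 26.1 CPM, low in WT replicate 1 alone, and its log2 fold change of -0.15 (SE 1.495, edgeR adjusted p = 0.992) became 4.03 without WT replicate 2 and 0.10 with upper-quartile scaling. The antisense gene Gm671, which shares 77 exonic bases with Krt7, had 0 counts in both WT-labelled libraries and 36 and 61 in the others. Of 7 keratins of stratified or other epithelia 1 was tested, and it passed the filter through the Rif1_KO-labelled pair. This was Krt20, an intestinal and urothelial keratin, with 0.0921 and 0.322 CPM against 9.95 and 1.85 CPM (log2 fold change 4.79, edgeR adjusted p = 0.571). Krt14 of basal cells, named after its values were seen, was at 28.9 CPM in WT replicate 2, from 269 counts, and at 0 to 2 counts in the other 3 libraries.

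Genes of adhesion and junctions fell into a few abundant genes and many near the floor. Epcam (ENSMUSG00000045394.8, chromosome 17, 87635979 to 87651106), a homophilic adhesion molecule, had 20.4 and 61.3 CPM in the WT-labelled pair and 3.24 and 9.27 CPM in the Rif1_KO-labelled pair. The labels did not overlap, and WT replicate 2 was highest. At a log2 fold change of -2.70 (SE 1.14) edgeR made no call (adjusted p = 0.595); without WT replicate 1 it was -3.24 and was called (edgeR adjusted p = 0.00545), and without WT replicate 2 it was -1.69 (edgeR adjusted p = 0.494). Cdh1, which encodes E-cadherin, was low in every library with 0.553 and 1.29 CPM against 0.377 and 1.96 CPM. The kidney cadherin gene Cdh16 had 0.553 and 3.12 CPM against 0.904 and 0.318 CPM.

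Claudins form the strands of tight junctions, and of the 4 in the list only Cldn6 was seen above 2 CPM. Cldn6 (ENSMUSG00000023906.2, chromosome 17, 23679365 to 23682446), a claudin of embryonic epithelia and pluripotent cells, had 0 and 20.6 CPM in the WT-labelled pair and 0.151 and 1.32 CPM in the Rif1_KO-labelled pair. Its 192 counts in WT replicate 2 stand against 0 counts in WT replicate 1, which allows a level of up to 0.276 CPM. The log2 fold change of -3.77 (SE 2.55, edgeR adjusted p = 0.747) was -4.72 and called without WT replicate 1 (edgeR adjusted p = 0.0193), and 6.43 without WT replicate 2. Cldn3 had 0 to 2 counts per library, Cldn4 1 to 4 and Cldn7 1 to 35, the highest in Rif1_KO replicate 2.

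Among the junction scaffolds Tjp1, which encodes the tight junction scaffold ZO-1 and is also made in endothelium, had 49.4 and 0.967 CPM in the WT-labelled pair and 9.80 and 46.1 CPM in the Rif1_KO-labelled pair. WT replicate 2 was the low library, from 9 counts. The log2 fold change was 0.15 (SE 1.61, edgeR adjusted p = 0.993), against 4.88 and a call without WT replicate 1 (edgeR adjusted p = 0.00556), -0.82 without WT replicate 2 and -1.35 without Rif1_KO replicate 2. Endothelial markers summed to 307 and 158 CPM against 79.3 and 175 CPM, with 8 of 8 above 3 counts in every library, and their part in Tjp1 was not tested. The scaffold gene Tjp3 was at 1.75 and 2.69 CPM against 0.980 and 0.159 CPM, without overlap (log2 fold change -1.97, SE 1.17, edgeR adjusted p = 0.706). It passed the filter through the WT-labelled pair, so its direction is no separate result. Tjp3 shares 174 exonic bases with the antisense gene Apba3. Marveld2, which encodes tricellulin of tricellular contacts, was at 5.70 CPM in WT replicate 2 and 5.56 CPM in Rif1_KO replicate 2, against 0.184 and 0 CPM in the libraries numbered 1, where 0 counts in Rif1_KO replicate 1 allow up to 0.226 CPM. Its log2 fold change of -0.07 was 3.86 without WT replicate 2, 1.04 without Rif1_KO replicate 1 and 0.14 with upper-quartile scaling. Ocln, for the strand protein occludin, had 3 to 21 counts and the apical polarity gene Crb3 1 to 23.

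Of 22 other junction and polarity genes 16 were tested and 0 were called by edgeR. The 16 had a median log2 fold change of -0.26. At an unadjusted p under 0.05 edgeR gave 1 with higher values (5.35% of all tested genes) and 0 with lower (3.05%). Dsc2, a desmosomal cadherin, was the higher one, with 1.38 and 0.967 CPM against 16.5 and 24.9 CPM (log2 fold change 4.13, edgeR adjusted p = 0.571). It passed the filter through the Rif1_KO-labelled pair, so its direction is no separate result. The junctional adhesion molecule gene F11r had 88.5 and 86.6 CPM against 40.9 and 33.4 CPM (log2 fold change -1.24, edgeR adjusted p = 0.601). Named after their values were seen, cingulin (Cgn) at 139 to 223 CPM and beta-catenin (Ctnnb1) at 244 to 383 CPM were present while most claudins were near the floor.

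**Figure D3:**
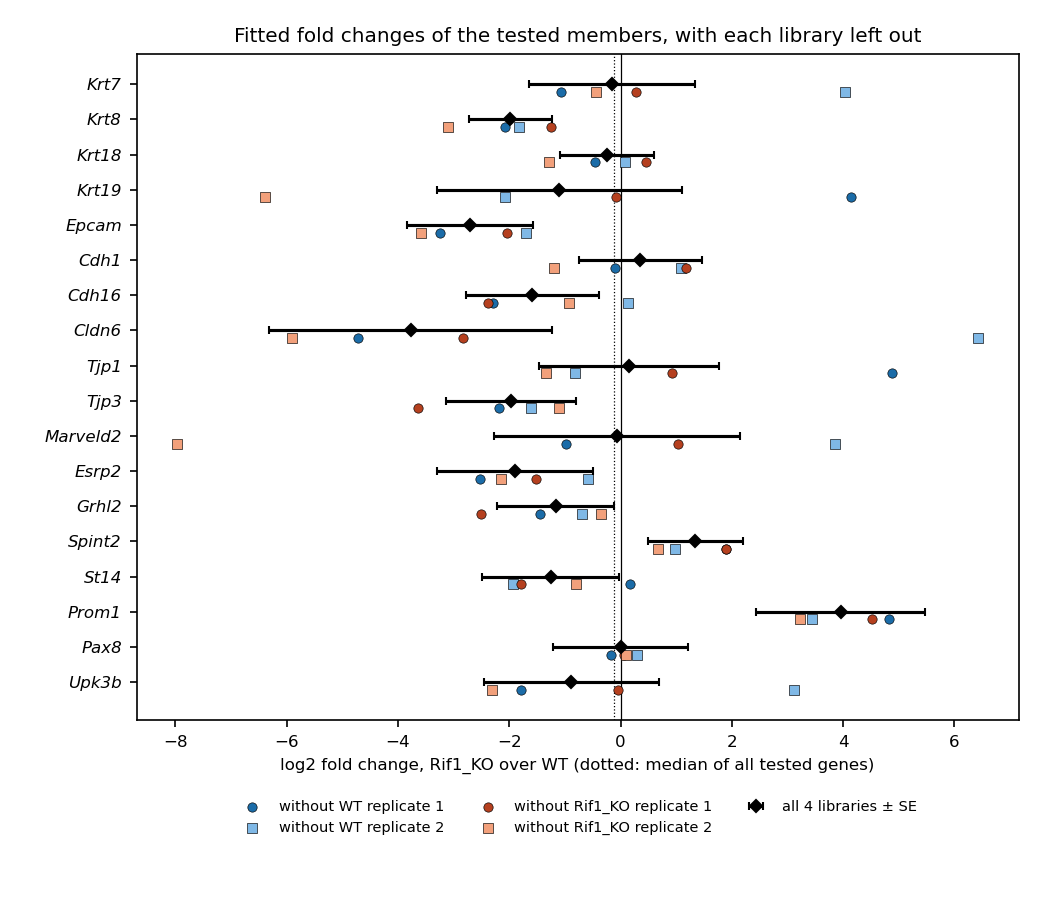
Fitted log2 fold change of Rif1_KO over WT for the 18 tested members (diamonds, ± SE) and the same with each library left out (coloured points); the dotted line is the median of all tested genes, -0.11. The sign changed with at least 1 left-out library in 11 of the 18 members, and 7 kept it, among them Krt8, Epcam, Spint2 and Prom1.

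Of the 5 epithelial regulators Esrp2 and Grhl2 had enough counts to be tested. Esrp1 and Esrp2 encode splicing regulators that set epithelial isoforms. Esrp2 had 4.97 and 19.7 CPM in the WT-labelled pair and 2.64 and 3.97 CPM in the Rif1_KO-labelled pair, without overlap (log2 fold change -1.89, SE 1.41, edgeR adjusted p = 0.770). The excess rests on WT replicate 2, without which the log2 fold change was -0.58. Esrp2 shares exonic bases with the antisense genes Nfatc3 (219) and 1810019D21Rik (354). Esrp1 had 5 to 12 counts per library. Grhl2, a Grainyhead factor that activates junction genes, had 0.737 and 1.29 CPM against 0.753 and 0.159 CPM (log2 fold change -1.16, SE 1.05, edgeR adjusted p = 0.817). Of the epithelial ETS factors Elf3 had 0.645 and 0.537 CPM against 0.377 and 2.38 CPM, and Ehf had 95 counts in Rif1_KO replicate 1 and 3 to 6 in the other libraries. Neither was tested. The antisense gene Gm26642, which shares 324 exonic bases with Elf3, had 71 to 273 counts per library.

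Genes of the membrane protease system and the apical surface held both members whose values were higher in the Rif1_KO-labelled pair without overlap. Prom1 (ENSMUSG00000029086.15, chromosome 5, 43993620 to 44102032) encodes prominin, a protein of apical membrane protrusions that is also found on stem cells. It had 1.11 and 0.430 CPM in the WT-labelled pair, from 12 and 4 counts, and 7.16 and 17.1 CPM in the Rif1_KO-labelled pair, from 95 and 322. The log2 fold change was 3.96 (SE 1.51), and it was 3.23 to 4.83 with each library left out. This difference was not called by edgeR (adjusted p = 0.577) and was called by DESeq2 (adjusted p = 0.0353). Prom1 passed the filter through the Rif1_KO-labelled pair, so its direction is no separate result. An antisense gene that shares exonic bases with it, Gm16401, had 0 to 8 counts per library. Spint2 encodes an inhibitor of membrane serine proteases and had 24.0 and 13.1 CPM against 28.8 and 65.3 CPM (log2 fold change 1.34, SE 0.85, edgeR adjusted p = 0.726). St14, for the protease matriptase, had 4.97 and 1.18 CPM against 1.73 and 0.847 CPM (log2 fold change -1.26, and 0.17 without WT replicate 1). The related inhibitor gene Spint1 had 0 to 4 counts, the recycling endosome gene Rab25 1 to 9 and the mucin gene Muc1 0 to 7. The group summed to 31.0 and 15.5 CPM against 38.8 and 83.4 CPM, and Spint2 was the largest part of this sum in each library. Keratins summed to 157 and 197 CPM against 42.5 and 133 CPM, as the plot of summed levels shows. Of the 4 keratins only Krt8 separated the labels by itself.

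Of the 3 nephric regulators only Pax8 had enough counts to be tested. Pax8 (ENSMUSG00000026976.15, chromosome 2, 24420560 to 24475599), a paired-box factor of the nephric lineage, varied little, with 8.57 and 12.3 CPM in the WT-labelled pair and 10.7 and 10.2 CPM in the Rif1_KO-labelled pair. Its log2 fold change was 0.01 (SE 1.21, edgeR adjusted p = 0.999), and -0.08 with DESeq2 size factors. The antisense gene Gm13415 overlaps its exons and had 1 to 10 counts per library. Pax2, its partner in nephric specification, had 1 and 8 counts against 2 and 6, and Lhx1, a homeodomain factor of the nephric duct, had 8 and 4 against 4 and 4. Of 19 other genes of the nephric duct and mesonephros 13 were tested and 0 were called, with a median log2 fold change of -0.46. By edgeR 0 had an unadjusted p under 0.05 in either direction, against 8.41% of all tested genes. Tfcp2l1, a collecting duct factor also active in pluripotent cells, had 13.4 and 8.38 CPM against 1.81 and 1.27 CPM (log2 fold change -2.81, edgeR adjusted p = 0.632). Hoxb7 had 0.368 and 0.860 CPM against 2.34 and 3.28 CPM (log2 fold change 2.19, edgeR adjusted p = 0.636). It passed the filter through the Rif1_KO-labelled pair, so its direction is no separate result. Gata3 of the nephric duct was named after its values were seen, with 48.3 CPM in WT replicate 2 and 1.38 to 4.82 CPM elsewhere.

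Of the mesothelial genes, Upk3b was abundant and Msln was not. Upk3b (ENSMUSG00000042985.7, chromosome 5, 136038496 to 136046487), a uroplakin gene that marks mesothelium, had 1.84 and 57.3 CPM in the WT-labelled pair and 5.58 and 26.4 CPM in the Rif1_KO-labelled pair. Both libraries numbered 2 were above both numbered 1, under either label. The log2 fold change was -0.88 (SE 1.58, edgeR adjusted p = 0.925), against 3.12 without WT replicate 2, 0.51 with limma-voom and 0.21 with the replicate block. Msln, for the mesothelial surface protein mesothelin, had 7 and 3 counts against 14 and 1. Of 12 other genes of the coelomic epithelium and mesothelium 10 were tested and 0 were called, with a median log2 fold change of 0.44. At an unadjusted p under 0.05 edgeR gave 2 with higher values (5.35% of all tested genes) and 0 with lower (3.05%). The 2 were Gpm6a, with 0.368 and 0.215 CPM against 34.9 and 4.93 CPM (log2 fold change 6.04), and Upk1b, with 0 and 0.430 CPM against 10.7 and 9.43 CPM (log2 fold change 5.52), each with an edgeR adjusted p of 0.571. Gpm6a had 4 and 2 counts in the WT-labelled pair and Upk1b 0 and 4. Both passed the filter through the Rif1_KO-labelled pair, so their direction is no separate result. Wt1, a regulator of this epithelium and of gonadal somatic cells, had 227 and 95.7 CPM against 155 and 168 CPM.

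**Figure D4:**
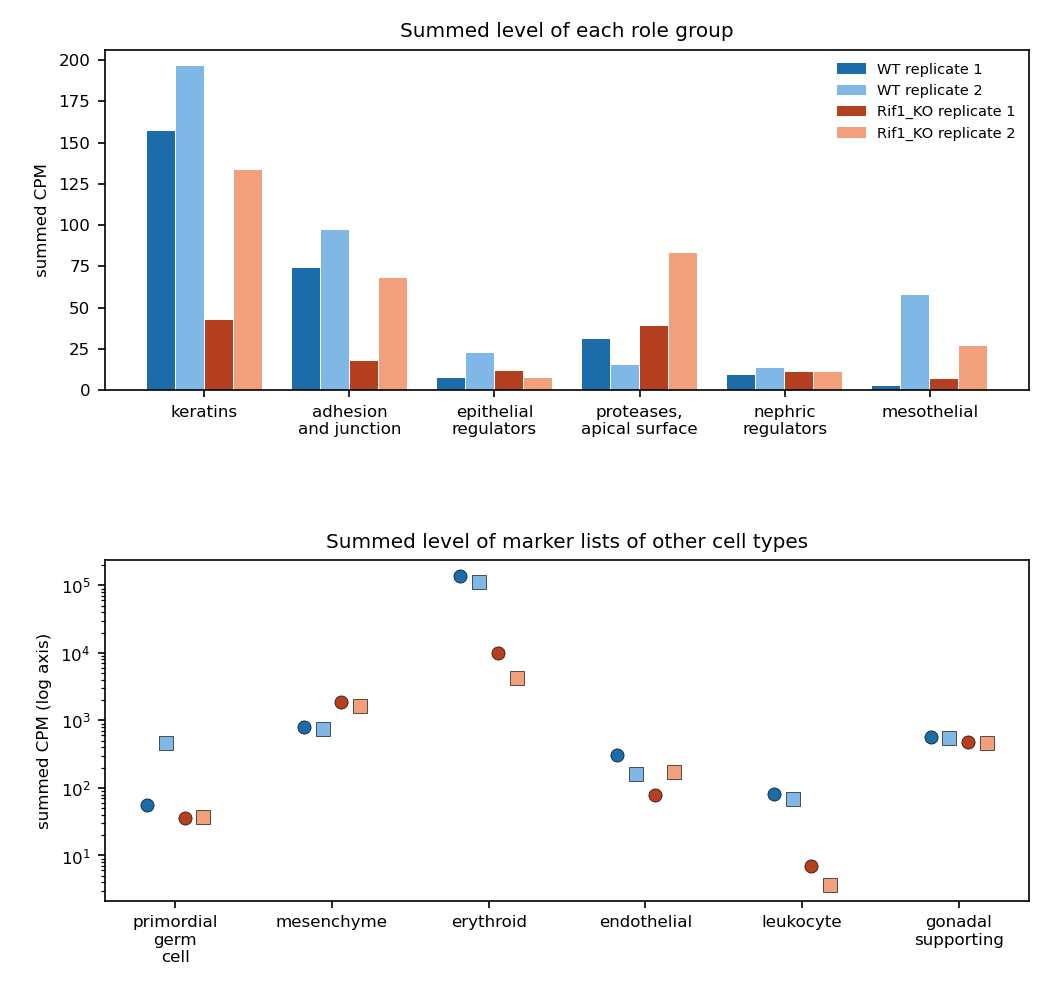
Top, summed CPM of the members of each role group in each library; bottom, summed CPM of marker lists of other cell types on a log axis, with the same colours. Keratin and junction sums are lowest in Rif1_KO replicate 1, the mesothelial sum is highest in WT replicate 2, and the summed germ cell markers are highest there too.

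Many members differed widely between libraries of 1 label. Of the 18 tested members 6 differed at least 10-fold between the libraries labelled WT (Krt7, Krt19, Cldn6, Tjp1, Marveld2 and Upk3b), where 19.2% of all tested genes did, with levels under the floor set to it. Between the libraries labelled Rif1_KO 2 did (Krt19 and Marveld2), against 6.12% of all. The median ratio between libraries of a label was 3.48-fold for the members and 2.32-fold for all genes in the WT-labelled pair, and 3.41-fold and 1.78-fold in the Rif1_KO-labelled pair. The highest value lay in WT replicate 2 for 11 of the 18 members (61.1%), where it did for 29.6% of all tested genes. It lay in Rif1_KO replicate 1 for 0 of the 18, against 23.0% of all tested genes. Of the members not tested, Ocln, Ehf, Spint1, Muc1 and Msln were highest there, Ehf with 7.16 CPM. Of the 8 tested germ cell markers 4 were also highest in WT replicate 2 and 2 in WT replicate 1, and their part in Epcam, Cldn6 and the other members high there was not tested. All 32 members together summed to 281 and 403 CPM in the WT-labelled pair and 128 and 329 CPM in the Rif1_KO-labelled pair. These sums overlap between the labels.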

How the data were processed

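The authors deposited raw counts, a whole number for each gene and library. The tools named in the submitters' processing notes are HISAT2, SAMtools, featureCounts, FastQC and Trim Galore, with build mm10. Per the file headers, featureCounts 1.6.2 on GENCODE M17 counted read pairs of mapping quality 30 or more, gave reads to every gene they overlap and used no strand. Genes with antisense or overlapping partners are therefore uncertain, and genes with close copies can be undercounted.

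Low genes were removed by filterByExpr of edgeR (groups as labelled, minimum count 10), leaving 15466 genes that hold 99.2% to 99.4% of counts. Labels were compared by the robust quasi-likelihood test of edgeR 4.0.16 in R 4.3.3 (TMM factors 0.800 to 1.32), with Benjamini-Hochberg adjustment over all tested genes at 0.05 and no covariate. SE is the log2 fold change over the root of F. CPM uses TMM-scaled totals of the tested genes, and CPM per kb the gene length of the table. The floor is 3 counts, for counting error only. The median log2 fold change of all genes was -0.111 (TMM), -0.195 (DESeq2 size factors) and 0.164 (upper quartile). Alternatives used DESeq2 1.42.0 and limma 3.58.1. The fits were also run on counts simulated with the same spread for all genes. That run does not measure error rates in these data. Libraries of a pair differed by more than sampling noise (chi-square per degree of freedom 50.8 for WT and 43.6 for Rif1_KO).

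Symbols came from a table of Ensembl identifiers, in which 95 had none. Promoters are RefSeq windows on GRCm38.p6. The members, lists and tests were chosen with earlier results of these data known. The rule for named genes takes Rif1, all 32 members, in full those called, the 2 with the smallest p and the 2 with the highest level per kb of each role group, and of each other list the called genes or the 2 with the smallest p; others are context for cell types or marked as chosen after their values were seen.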

Additional observations from a re-analysis of the deposited data

How the results depend on the processing

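The count of called genes, 2 of all tested, was 0 with upper-quartile factors, 6 with at least 10 counts in every library, 54 with no filter on low counts, 521 with DESeq2, 7 with the replicate block and 5 to 1345 with 1 library left out. The count of members called, 0, was 1 with DESeq2 and 0 to 4 with 1 library left out, the 4 being Krt8, Epcam, Cldn6 and Tjp1 of 25 members tested without WT replicate 1, where 7.17% of 18746 genes were called. Fits with 1 library left out assume that a label with 1 library varies as the other does. At an unadjusted p under 0.05, members with higher values numbered 1. This was 2 with no filter, 0 with at least 10 counts in every library and 0 with the replicate block. Members with lower values numbered 1, against 2 each with DESeq2 size factors, no filter, at least 10 counts in every library and DESeq2. The share of all tested genes at this threshold was taken for the main fit only, 5.35% higher and 3.05% lower. Member counts in the other settings are therefore no result about the members.

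Log2 fold changes of opposite sign were 0.10 (Krt7), 0.002 (Krt18) and 0.14 (Marveld2) with upper-quartile factors, 0.25, 0.12 and 0.39 with no filter, 1.52 (Krt7) and 0.51 (Upk3b) with limma-voom, and -0.076 for Pax8 with DESeq2 and with its size factors. With the replicate block they were 1.37 for Krt7 and 0.21 for Upk3b, and no other member changed sign. With 1 library left out the ranges were -1.06 to 4.03 for Krt7, -1.28 to 0.47 for Krt18, -6.39 to 4.14 for Krt19, -1.20 to 1.18 for Cdh1, -2.38 to 0.14 for Cdh16, -5.91 to 6.43 for Cldn6, -1.35 to 4.88 for Tjp1, -7.98 to 3.86 for Marveld2, -1.94 to 0.17 for St14, -0.18 to 0.30 for Pax8 and -2.32 to 3.12 for Upk3b. The causes were not tested. The labels do not say that the replicate numbers mark a shared litter or day. Deviations of same-numbered libraries were uncorrelated over genes (r = -0.0234). A correlation over all genes cannot tell whether libraries share a litter or day, so pairing stays undecided. At these depths 14 members had too few counts for the filter, some of them (Ehf, Elf3, Cldn7) with counts mainly in 1 library.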
